A study of Mus musculus with 4 samples.

Results

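Droplets that carried the RNA of a C1q-high macrophage and of a T cell under a single cell barcode were examined in CD45+ CD146- immune cells sorted from mouse liver. Barcodes were kept when 200 genes or more were detected and when mitochondrial genes gave no more than 10% of UMIs (unique molecular identifiers, counted as RNA molecules). Members were then chosen by their UMIs of 7 genes: a kept barcode was a member if C1qa, C1qb and C1qc together gave at least 5 of every 1000 UMIs, if Cd3d, Cd3e and Cd3g together gave at least 2 UMIs, and if Cd79a, a B cell gene, gave 0. The rule found 105 members among 6237 kept barcodes. They are called C1q-high Cd3 droplets here, since the rule reads RNA in a droplet and does not say whether 1 cell or several gave it.

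The series holds 4 libraries of 10x Genomics single-cell RNA-seq from C57BL/6J mice: 2 from control mice and 2 from mice fed the Amylin liver NASH model diet, which gives nonalcoholic steatohepatitis. All 4 were CD45+ CD146- hepatic immune cells, so that cells of the blood vessel wall marked by CD146 were gated out. Flavopiridol, a transcription inhibitor, was present during perfusion and digestion in all groups. The sources used here do not say how old the mice were, how long they were fed, or whether each library came from separate mice, so p-values measure the spread between libraries, which may be technical.

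C1q starts the classical complement pathway, and in the liver its subunit genes are transcribed mainly by macrophages. Kupffer cells, the resident macrophages of the liver sinusoids, express Clec4f, Vsig4 and Timd4. In steatohepatitis, monocyte-derived macrophages enter the liver, and some take on a lipid-associated state with Trem2, Gpnmb and Spp1. Cd3d, Cd3e and Cd3g encode the CD3 chains of the T cell receptor complex, which macrophages do not make. CD8 and CD4 mark the main T cell subsets, and Foxp3 marks regulatory T cells. A droplet can capture a pair of cells, and free RNA of lysed cells also enters droplets.

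In the mm10 assembly, with GENCODE vM21 gene models, the C1q genes lie side by side on the minus strand, with C1qb at chr4:136880129-136886187, C1qc at chr4:136889804-136893065 and C1qa at chr4:136895917-136898803. The Cd3 genes lie together as well, with Cd3g at chr9:44969572-44980431 and Cd3e at chr9:44998740-45009627 on the minus strand and Cd3d at chr9:44981786-44987339 on the plus strand. All 6 are protein-coding genes.

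Members numbered 5 in control 1, 3 in control 2, 55 in NASH 1 and 42 in NASH 2. The kept barcodes numbered 1321, 1437, 1592 and 1887 in the same order. The NASH libraries were deeper, with medians of 7633 and 7469 UMIs per kept barcode against 3395 and 3053 in control. Between 1 and 5 kept barcode sequences were shared by each pair of libraries, 1 of them involving a member, and no barcode was a member in both libraries. Members were compared with 188 C1q-low T droplets, which met the Cd3 and Cd79a terms below the C1q threshold, and with 3841 C1q-high droplets without a Cd3 or Cd79a UMI.

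Members carried T cell genes beyond the Cd3 genes that chose them. A list of 20 T cell genes outside the rule, among them Lck, Cd2, Thy1 and Bcl11b, gave a mean of 0.223 UMIs per droplet in the 3841 C1q-high droplets without Cd3, of which 15.9% had any. The mean was 1.48 in the 91 C1q-high droplets with a single Cd3 UMI, and 38.5% had any. At the threshold of 2 Cd3 UMIs, the 18 members had a mean of 5.00, and 94.4% had any. With 3 or 4 Cd3 UMIs the mean was 6.21 in 42 members, and with 5 or more it was 10.2 in 45 members, all with at least 1. Per 1000 UMIs the list gave 0.0364, 0.170, 0.609, 0.623 and 0.891 in the same order. Of the 45 members with 5 or more Cd3 UMIs, 44 came from NASH libraries. The means of control members with 2, 3 or 4, and 5 or more were 4.67, 4.50 and 3.00, in 3, 4 and 1 droplets. Over all 105 members, 3 had no UMI of the list and the highest had 30.

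All 20 of these T cell genes were detected among the members, and so were all 20 genes of a macrophage list outside the rule, which holds Csf1r, the receptor for macrophage colony-stimulating factor, and Adgre1, the gene of F4/80. Per 1000 UMIs the T cell list gave 1.05, 0.622, 0.579 and 0.985 in the members of control 1, control 2, NASH 1 and NASH 2. It gave 2.16 to 2.92 in C1q-low T droplets and 0.0287 to 0.0603 in C1q-high droplets without Cd3. The macrophage list gave 17.1, 18.8, 26.5 and 24.1 per 1000 UMIs in members. C1q-low T droplets had 2.65 to 7.55, and C1q-high droplets without Cd3 had 24.0 to 31.8. In each library the members lay between the references on both lists.

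**Figure D1:**
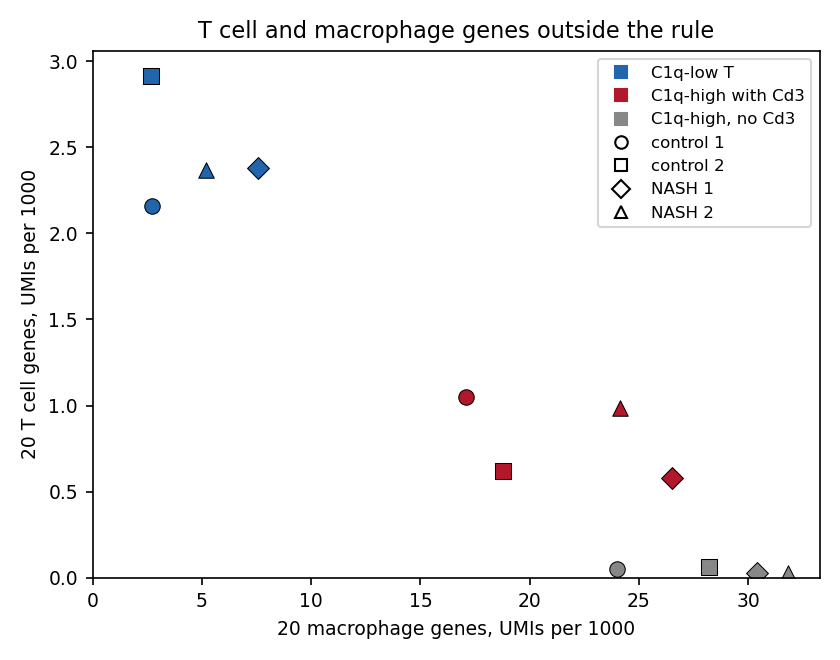
UMIs per 1000 of 20 T cell genes (vertical axis) against those of 20 macrophage genes (horizontal axis), none of them used by the rule, in the summed droplets of each class and library. Red members (C1q-high with Cd3) lie between the blue C1q-low T droplets and the grey C1q-high droplets without Cd3 on both axes, at 0.579 to 1.05 T cell UMIs per 1000.

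Members held more RNA than either reference. Their median UMIs per droplet were 5204 in control 1, 3743 in control 2, 11038 in NASH 1 and 9400 in NASH 2. C1q-low T droplets had medians of 3475, 2371, 3930 and 3647, and C1q-high droplets without Cd3 had 3227, 2848, 8441 and 7923. The median of the members was the highest of the 3 classes in each of the 4 libraries. Since a deeper droplet reaches 2 Cd3 UMIs more easily, part of this order is set by the rule. The single-droplet ranges overlapped widely, with members from 2514 to 29287 UMIs.

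**Figure D2:**
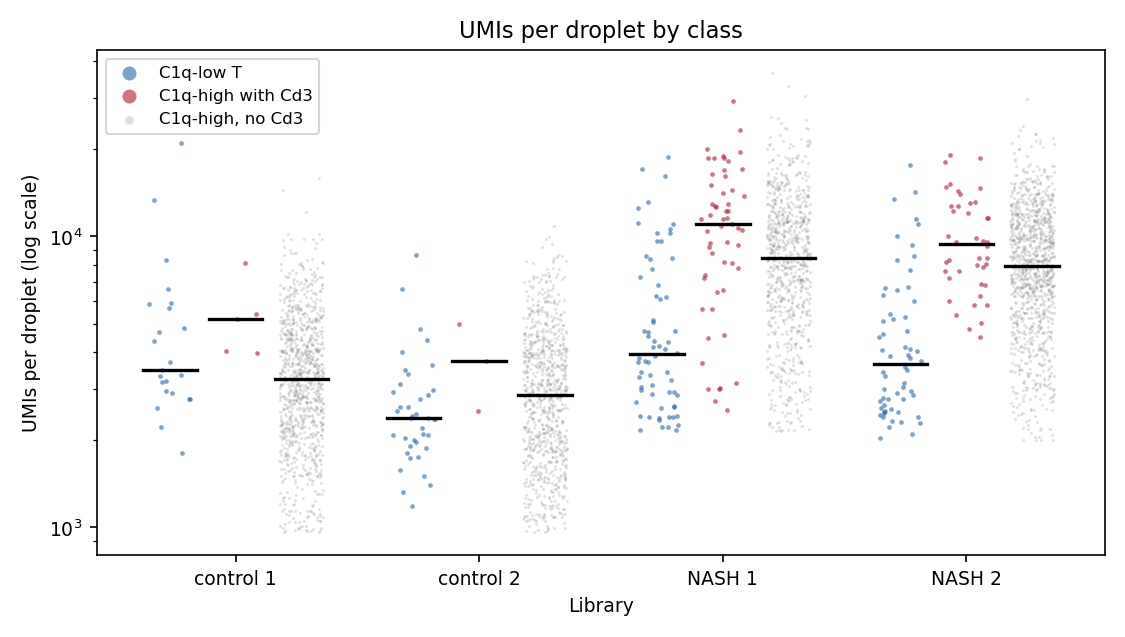
UMIs per droplet on a log axis for each library and class, with 1 point per droplet and a black bar at the median. The members' medians, 3743 to 11038, stand above those of both reference classes in every library, and the ranges overlap.

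Members were taken as sums of average T cells and average macrophages of the same library, and the UMIs of the T cell and macrophage lists were solved for the amount of each. The T cell list corresponded to 0.487, 0.276, 0.479 and 0.843 average C1q-low T cells per member in control 1, control 2, NASH 1 and NASH 2. The macrophage list corresponded to 0.985, 0.762, 1.02 and 0.819 average C1q-high droplets without Cd3. The macrophage part was therefore near a whole average macrophage, and the T cell part was below a whole average T cell in each library. The mean UMIs of members came to 0.612, 0.636, 0.776 and 0.753 of the sum of the references' means, and to 0.885, 1.18, 0.954 and 0.910 of the solved amounts. By this calculation T cell RNA made up 41.6%, 23.6%, 22.3% and 37.0% of a member's UMIs.

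Members just inside and just outside the C1q threshold were few. Among NASH 1 droplets with at least 2 Cd3 UMIs and no Cd79a, 53 had under 1 C1q UMI per 1000, 3 had 4 to 5, 3 had 5 to 6 and 38 had 10 or more. In NASH 2 these numbers were 51, 2, 1 and 30. No control droplet of this kind lay between 2 and 6 per 1000. Within the members, C1q ranged from 5.11 to 26.1 UMIs per 1000 with a median of 12.6, and Cd3 from 2 to 19 UMIs with a median of 4.

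A larger share of barcodes were members in the NASH libraries. The share was 0.379% in control 1 (95% exact binomial interval 0.123 to 0.881%), 0.209% in control 2 (0.0431 to 0.609%), 3.45% in NASH 1 (2.61 to 4.47%) and 2.23% in NASH 2 (1.61 to 3.00%). These intervals cover counting error only. Both NASH libraries lay above both control libraries, with means of 0.294% ± 0.120 (SD, n = 2) and 2.84% ± 0.869 (SD, n = 2). In edgeR's quasi-likelihood test on the numbers of barcodes in 7 classes, the log2 difference was 3.25 ± 0.556 (SE), with an adjusted p of 0.000302. Of the 7 classes, members alone passed the test, and the C1q-low T droplets, at 2.23% and 3.66%, had a log2 difference of 0.71 and an adjusted p of 0.253. The exact two-sided permutation test gave p = 0.33, the smallest that 2 libraries against 2 can give.

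Depth moved with the diet, and this call was lost at equal depth. With every barcode thinned to 1000 UMIs, 1, 2, 5 and 4 members remained, at 0.109% in control and 0.263% in NASH, and the log2 difference was 1.18 with an adjusted p of 0.293. Thinned to 3000 UMIs, the means were 0.328% and 1.32%, the log2 difference was 1.96 and the adjusted p was 0.0563. Barcodes deep enough for 3000 UMIs were 781 of 1321 in control 1 and 735 of 1437 in control 2. In NASH 1 they were 1442 of 1592 and in NASH 2 1751 of 1887, so a larger part of the control barcodes was left out. Among C1q-high droplets of NASH 1, members made up 4.78% in the shallowest depth quartile and 10.0% in the deepest, and in NASH 2 1.34% and 5.33%. Of all droplets with at least 2 Cd3 UMIs, members made up 12.5% ± 7.58 in control and 43.3% ± 3.03 in NASH (SD, n = 2 each). In edgeR's quasi-likelihood test on members and C1q-low T droplets alone, the log2 difference was 1.91 with an adjusted p of 0.00865. These 2 numbers add up to the total used as offset, so they are not independent and the spread was not estimated over other classes. At equal depth the members' share of droplets with Cd3 was 6.83% and 11.1% with 1000 UMIs and 17.9% and 38.2% with 3000.

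Droplets of other lineages below the C1q threshold were also searched for at least 2 Cd3 UMIs. Whether free RNA or a T cell in the same droplet gave these UMIs was not tested. Among B cell droplets these made up 1.47% in control 1, 4.60% in control 2, 12.1% in NASH 1 and 8.49% in NASH 2, at median depths of 3734 to 6114 UMIs. Among plasmacytoid dendritic cell droplets they made up 1.23%, 1.12%, 0% and 0%, at medians of 4733 to 5812 UMIs, with upper bounds of 5.36% and 6.06% for the NASH libraries. Among all C1q-high droplets the shares were 0.488%, 0.334%, 5.98% and 3.51%, at medians of 2855 to 8703 UMIs. The C1q-high shares thus lay below those of B cell droplets in every library, below those of plasmacytoid dendritic droplets in both control libraries and above the 0% in both NASH libraries. In NASH 2 the C1q-high share lay within the bound of the dendritic droplets, and in NASH 1 it lay above it.

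The reverse question is how often droplets of each lymphoid lineage passed the C1q threshold. Of the T droplets, 5 of 28 in control 1, 3 of 42 in control 2, 55 of 121 in NASH 1 and 42 of 102 in NASH 2 did, which is 17.9%, 7.14%, 45.5% and 41.2%. B cell droplets passed in 18 of 82, 18 of 98, 53 of 100 and 121 of 214 cases, or 22.0%, 18.4%, 53.0% and 56.5%. Plasmacytoid dendritic droplets passed in 15.8%, 5.88%, 14.1% and 8.20%, and natural killer cell droplets in 42.9%, 13.3%, 26.3% and 25.0%, the first of these from 7 droplets. T and B droplets were higher in both NASH than in both control libraries, and the ranges of the dendritic and natural killer droplets overlapped between the diets.

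The T share was lower than the B share in 4 of 4 libraries, by a mean of 9.56 percentage points ± 4.84 (SD, n = 4), and the difference was -1.94 points with all droplets thinned to 1000 UMIs and -2.38 points at 3000, where T was higher in 2 of 4. It was higher than the plasmacytoid dendritic share in 4 of 4, by 16.9 points ± 17.6. With at least 3 Cd3 UMIs it was higher in 2 of 4, with 13.04% against 15.8% in control 1 and 5.41% against 5.88% in control 2. With 2 Cd3 UMIs both comparisons gave p = 0.13 in an exact two-sided test by sign flips, the smallest that 4 pairs allow. The difference from natural killer droplets was 1.03 points ± 20.7, with T higher in 2 of 4 libraries (exact p = 1.0). With at least 500 genes and at most 5% mitochondrial UMIs it was 15.7 points, with T higher in 4 of 4 (exact p = 0.13), and at 3000 UMIs 11.1 points, with T higher in 3 of 4. C1q-high B droplets were deep as well, with medians of 11589 and 10684 UMIs in the NASH libraries against 5197 and 5483 for C1q-low B droplets.

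**Figure D3:**
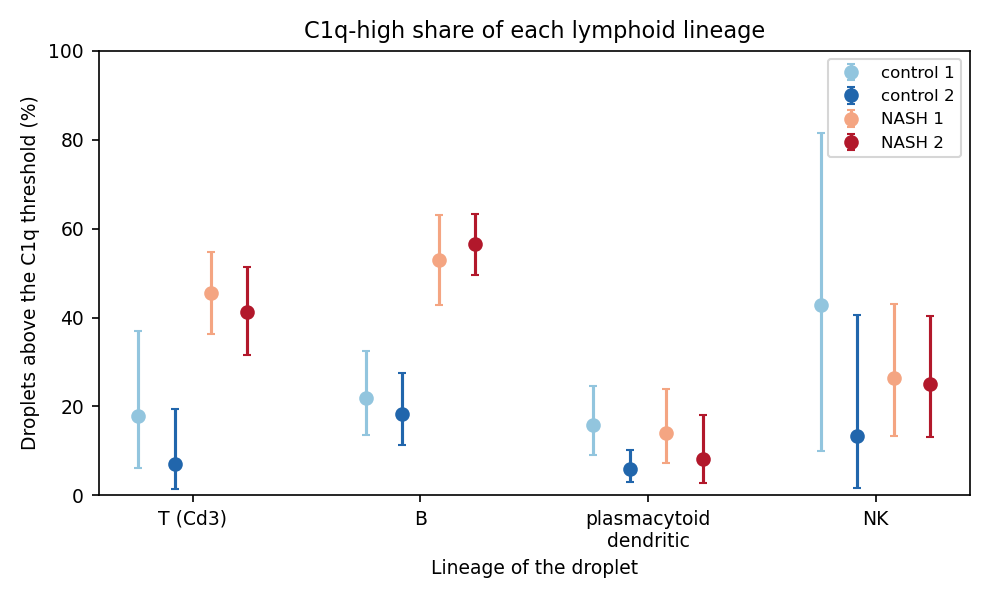
Share of droplets of each lymphoid lineage above the C1q threshold (percent), with 1 point per library and 95% exact binomial intervals that cover counting error only. T and B droplets stand at 41.2 to 56.5% in the NASH libraries and at 7.14 to 22.0% in control, and dendritic droplets at 5.88 to 15.8% in all 4.

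The macrophage of each member was sorted by UMIs. A droplet with any UMI of Ccr2, which marks recently recruited cells, was called Ccr2+. Where Ccr2 was at 0, droplets were sorted by Clec4f, Timd4 and Gpnmb. Most Ccr2+ NASH members also carried Clec4f, and some were called on 1 Ccr2 UMI, such as a NASH 1 member with 42 Clec4f UMIs. The Ccr2+ class is thus not a class without Clec4f. Among the 8 control members, 5 were Clec4f+ Timd4+, 2 were Clec4f+ alone and 1 had none of these genes. Among the 97 NASH members, 50 were Ccr2+, 21 were negative for Ccr2 and Clec4f, 11 were Clec4f+ Gpnmb+, 9 were Clec4f+ alone and 6 were Clec4f+ Timd4+. Averaged over the NASH libraries, members were Ccr2+ in 51.1% ± 4.90 of droplets, against 30.8% ± 3.58 of C1q-high droplets without Cd3 (SD, n = 2 each). With every droplet thinned to 1000 UMIs these shares were 8.12% and 7.48%. T cells also carry Ccr2, and 37.9% and 25.0% of the C1q-low T droplets of NASH 1 and NASH 2 had it, so this share does not measure macrophages alone.

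Clec4f, a lectin of Kupffer cells that T cells do not make, was detected in 70.9% of members in NASH 1 and 59.5% in NASH 2, against 72.7% and 75.2% of C1q-high droplets without Cd3. C1q-low T droplets had a Clec4f UMI in 22.7% and 25.0% at median depths of 3930 and 3647 UMIs, against medians of 11038 and 9400 for members. With every droplet thinned to 1000 UMIs, the NASH means were 33.4% ± 6.80 in members and 53.9% ± 5.90 in C1q-high droplets without Cd3 (SD, n = 2), lower in both libraries, with 3.26% ± 2.46 in C1q-low T droplets. Thinning does not remove the share of a member's UMIs that came from the T cell. With 2 pairs the exact test cannot go below 0.5.

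The macrophage genes were therefore compared per UMI of the macrophage list, which takes most T cell RNA out of the scale. UMIs of a gene that came from the T cell still count, so genes that C1q-low T droplets also carry can be higher for that reason. In edgeR's quasi-likelihood test over 9243 genes, 9.72% passed, with 9.23% higher and 0.487% lower in members, the T cell genes among the higher ones being fixed by the choice of members. Of 17 Kupffer cell genes tested, 7 fell and none rose: Clec4f, Vsig4, Folr2, Slc40a1, Cdh5, C6 and Cd5l. The list's median log2 difference was -0.53, against 0.31 over all genes tested. Without NASH 2 all 7 kept their sign, at -0.71 for Cdh5, -0.68 for C6, -0.65 for Clec4f, -0.58 for Vsig4, -0.57 for Folr2, -0.46 for Slc40a1 and -0.22 for Cd5l, but none passed in edgeR, with adjusted p values of 0.203 for Clec4f, 0.354 for Vsig4 and 0.911 for Cd5l. Without NASH 1, C6 alone of the 7 lost its call (adjusted p 0.207).

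Clec4f gave 19.5, 6.16, 2.99 and 2.52 UMIs per 100 macrophage UMIs in the members of control 1, control 2, NASH 1 and NASH 2. In the C1q-high droplets without Cd3 it gave 18.8, 14.4, 5.86 and 7.68. Members were lower in 3 of 4 libraries, the exception being control 1, and the log2 difference was -0.93 ± 0.167 (SE) with an adjusted p of 1.26e-06 in edgeR. Vsig4, the complement receptor CRIg that clears opsonised particles, gave 9.65, 6.64, 2.95 and 1.84 in members. Without Cd3 it gave 12.05, 10.3, 5.02 and 4.63, higher in all 4 libraries. The log2 difference of Vsig4 was -0.83 ± 0.169 with an adjusted p of 3.72e-05 in edgeR.

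Folr2, a folate receptor of resident macrophages, had a log2 difference of -0.82 (edgeR, adjusted p 0.000523), and Slc40a1, the iron exporter ferroportin, had -0.72 (edgeR, adjusted p 0.000785). Cd5l, a secreted scavenger receptor cysteine-rich protein of macrophages, had -0.53 (edgeR, adjusted p 0.0145). Timd4, the phosphatidylserine receptor of embryo-derived Kupffer cells, was at -0.59 and did not pass (edgeR, adjusted p 0.187). Marco was at -0.09 and Cd163 at -0.20, both far from the threshold.

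Of 18 lipid- and scar-associated genes, 4 rose and none fell: Spp1, Gpnmb, Fabp5 and Fabp4. Spp1, the gene of osteopontin, gave 681 and 852 CPM (UMIs scaled to the total of all genes) in the members of NASH 1 and NASH 2, and 457 and 182 CPM in the C1q-high droplets without Cd3. It was at 0 UMIs in the control members. Per macrophage UMI its log2 difference was 1.68 ± 0.203 (SE), with an adjusted p of 1.22e-12 in edgeR.

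The Spp1 excess lay in few droplets. In NASH 2, a single member held 258 of the 360 Spp1 UMIs, or 71.7%, and without it the level was 249 CPM. In NASH 1 the highest member held 116 of 425, or 27.3%, and the level without it was 502 CPM. With every droplet thinned to 1000 UMIs, Spp1 was found in 16.9% of members and 8.81% of C1q-high droplets without Cd3 (means of the NASH libraries), higher in both. Unthinned, the share of droplets with Spp1 was 43.6% and 21.4% in members and 36.1% and 21.5% in C1q-high droplets without Cd3, and 10.6% and 8.33% in C1q-low T droplets. Leaving out NASH 2 gave a log2 difference of 0.77 and an adjusted p of 0.487 in edgeR.

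Gpnmb, a glycoprotein of lipid-laden macrophages, gave 268 and 315 CPM in NASH members against 315 and 182 CPM without Cd3, a log2 difference of 0.55 per macrophage UMI (edgeR, adjusted p 0.0436), and without NASH 2 it was -0.040. Fabp5 at 0.59 and Fabp4 at 0.90, both fatty acid carriers, lost their calls without either NASH library. Fabp4 gave 67.3 and 71.0 CPM in NASH members and 36.8 and 55.3 CPM without Cd3, but 486 and 618 CPM in the C1q-low T droplets of these libraries. Trem2, the lipid receptor of this state, gave 962 and 658 CPM against 989 and 831 CPM, and its log2 difference of 0.14 did not pass (edgeR, adjusted p 0.708). Cd9, a tetraspanin, was at 0.18 and did not pass. Members thus did not differ beyond the spread in Trem2 or Cd9.

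Of 14 recruited macrophage and monocyte genes tested, 4 rose and none fell: Ly6c2, H2-M2, Ccr2 and Cx3cr1. Cx3cr1, the fractalkine receptor, gave 333 and 360 CPM in NASH members and 247 and 268 CPM in C1q-high droplets without Cd3, higher in both, with 87.8 and 72.1 CPM in C1q-low T droplets. Its log2 difference per macrophage UMI was 0.70 ± 0.185 (SE) with an adjusted p of 0.0031 in edgeR, 0.187 without NASH 1 and 0.802 without NASH 2. Ccr2, the chemokine receptor that draws monocytes into tissue, gave 196 and 135 CPM in members against 108 and 108 CPM without Cd3. C1q-low T droplets had 206 and 124 CPM of Ccr2, close to members, and Ly6c2 was higher in C1q-low T droplets (351 and 446 CPM) than in members (86.6 and 175 CPM). Without NASH 2 neither Ccr2 (edgeR, adjusted p 0.527) nor Ly6c2 (0.307) nor H2-M2 (0.961) passed.

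Antigen presentation genes were higher per macrophage UMI for 5 of 12 tested, among them Cd74, the class II invariant chain, with a log2 difference of 0.55 (edgeR, adjusted p 0.0107), and H2-Aa with 0.50 (edgeR, adjusted p 0.03). As levels these genes were alike, with Cd74 at 16699 and 18080 CPM in NASH members and 18188 and 16916 CPM without Cd3. Under TMM scaling, which centres the bulk of genes, Cd74, H2-Aa, H2-Ab1 and H2-Eb1 all turned negative, so their direction rests on the scaling. Leaving out control 2 or NASH 2 also took the calls of these 4 genes away, with Cd74 at 0.18 (edgeR, adjusted p 0.58) and 0.58 (adjusted p 0.247). Of 11 cell cycle genes, Top2a, which untangles DNA for division, and Ube2c fell, with Top2a at 6.41 and 16.6 CPM in NASH members, 40.5 and 26.4 CPM without Cd3 and 38.4 and 85.8 CPM in C1q-low T droplets. Top2a did not pass without NASH 1 (edgeR, adjusted p 0.754), nor did Ube2c without NASH 1 (0.396) or NASH 2 (0.623). Mki67, a proliferation marker, was at -0.91 and did not pass (edgeR, adjusted p 0.214).

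Among T cell attracting chemokine genes, Ccl5 rose, and of 13 cell contact and engulfment genes, among them Mertk, Axl and Stab1, none passed. Ccl5 is made by cytotoxic T cells and gave 4356 and 4952 CPM in the C1q-low T droplets of the NASH libraries, above the 1281 and 2074 CPM of members. In all, 15 genes of these macrophage lists were higher and 9 lower per macrophage UMI. Under TMM, which moved the median of all genes from 0.31 to -0.14, 4 were higher and 26 lower. Without NASH 2, 2 were higher and 1 lower, and within the NASH libraries alone 26 passed, of which 19 were the same genes.

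**Figure D4:**
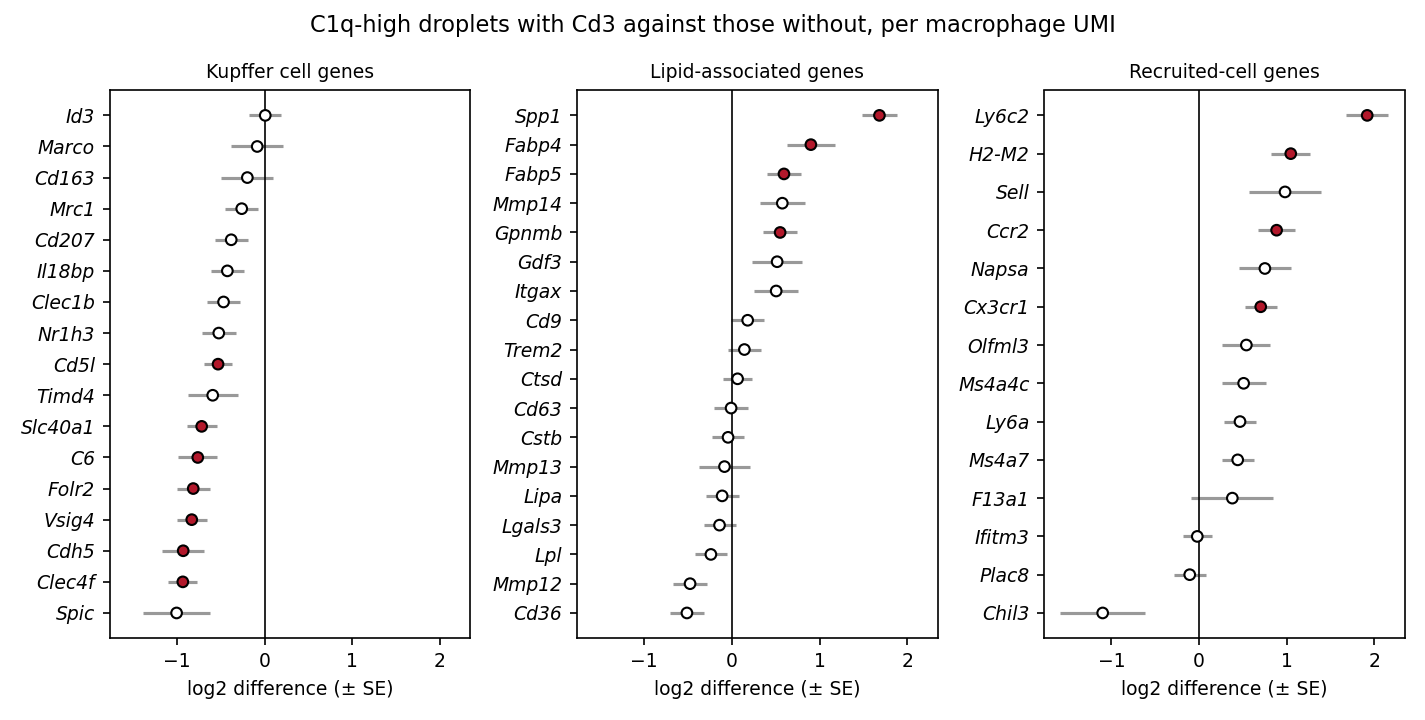
Log2 difference per macrophage UMI (points, with SE bars) between C1q-high droplets with and without Cd3, for Kupffer cell, lipid-associated and recruited-cell genes, with filled points passing an adjusted p of 0.05 in edgeR. The 7 filled Kupffer genes lie to the left of 0 and the 8 filled genes of the other lists to the right, and Spp1 and Ly6c2 lie farthest out.

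The T cell of each member was sorted in the same way. Among the 97 NASH members, 27.6% ± 2.05 had Cd8a or Cd8b1 alone, 15.3% ± 1.47 had Cd4 alone, 7.77% ± 5.85 had Foxp3 and 48.1% ± 4.01 had none of these (mean over libraries, SD, n = 2). In C1q-low T droplets of the same libraries the shares were 30.3% ± 4.29, 11.1% ± 1.50, 4.62% ± 4.18 and 51.6% ± 0.107. Unthinned, the largest difference between these means was 4.26 points, for CD4 alone. Foxp3 and CD8 alone differed in opposite directions in NASH 1 and NASH 2. Foxp3 was in 3.64% and 11.9% of members and 7.58% and 1.67% of C1q-low T droplets. CD8 alone was in 29.1% and 26.2% of members and 27.3% and 33.3% of C1q-low T droplets. CD8, CD4 and Foxp3 members all occurred in both NASH libraries. Depth was unequal here, with medians of 11038 and 9400 UMIs for members and 3930 and 3647 for C1q-low T droplets. C1q-high droplets without Cd3 had a CD8 UMI in 1.51% and a Cd4 UMI in 1.33%, at median depths of 8441 and 7923 UMIs. After thinning to 1000 UMIs, CD8 alone remained in 2.73% of members and 19.9% of C1q-low T droplets. Cd4 remained in 2.10% and 5.61%, and 93.1% of members had none of these genes. By the additive calculation, T cell RNA made up 22.3% and 37.0% of a member's UMIs in NASH 1 and NASH 2. Thinned members thus held fewer T cell UMIs than thinned C1q-low T droplets, and these shares are not at equal T cell depth.

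The pairs of states were mixed. The 50 Ccr2+ NASH members held 15 CD8, 7 CD4, 3 Foxp3+ and 1 double-positive droplet, and 24 without these genes. The 21 negative for Ccr2 and Clec4f held 8 CD8, 5 CD4 and 2 Foxp3+ droplets, and 6 without. The 26 Clec4f+ members without Ccr2 held 4 CD8, 3 CD4 and 2 Foxp3+ droplets, and 17 without. The control members held 2 CD4 droplets and 1 CD8 droplet, all Clec4f+ Timd4+ and all in control 1. A missing UMI is not a missing transcript at these depths, so the classes without subset genes hold T cells of unknown subset. Every member with Cd4 alone was called on 1 Cd4 UMI. C1q-high droplets without Cd3 had Cd4 alone in 2.58% of droplets in control 1 and 3.65% in control 2.

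Per UMI of the T cell list, subset genes were compared with C1q-low T droplets. Of 3726 genes tested by edgeR, 75.4% passed, 74.7% higher in members, where macrophage RNA counts as well, and 0.698% lower. Of the genes on the 6 T subset lists, 7 rose (Ccl4, Ikzf2, Klf2, Rgs1, Cd44, Maf and Fcer1g) and 3 fell (Gzma, Gzmb and Cd160). Ccl4, Cd44, Maf and Fcer1g are also made by macrophages. Under TMM 4 rose and 25 fell, as that scaling moved the median of all genes from 1.52 to -0.06.

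Cd8b1, a chain of the CD8 co-receptor, gave 10.7, 0, 8.03 and 4.09 UMIs per 100 T cell UMIs in the members of control 1, control 2, NASH 1 and NASH 2, and 1.17, 0.647, 6.81 and 10.4 in C1q-low T droplets. The ranges overlapped and the log2 difference of -0.14 did not pass (edgeR, adjusted p 0.816). Cd8a was at -0.17 and Cd4, the helper co-receptor, at 0.59, and neither passed. Ccl5 gave 50.0, 343, 221 and 211 per 100 T cell UMIs in members and 181, 366, 183 and 209 in C1q-low T droplets. Members were lower in both control and higher in both NASH libraries, and the log2 difference was -0.32 (edgeR, adjusted p 0.381).

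Gzma, the gene of the cytotoxic protease granzyme A, gave 0, 28.6, 1.11 and 0.24 UMIs per 100 T cell UMIs in members and 5.08, 12.3, 12.3 and 4.78 in C1q-low T droplets. Members were lower in 3 of 4 libraries, control 2 being the exception on 2 UMIs, and the log2 difference was -2.99 ± 0.709 (SE; edgeR, adjusted p 0.000131). Gzmb, granzyme B, fell by 2.00 on the log2 scale (edgeR, adjusted p 0.00292), and Cd160, a receptor of innate-like and cytotoxic lymphocytes, fell by 1.74 (edgeR, adjusted p 0.0222). Leaving out NASH 1 raised the adjusted p of all 3 above 0.05, to 0.0581, 0.0522 and 0.0671, and leaving out NASH 2 gave 0.0988 for Gzmb and 0.47 for Cd160.

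The granzymes came from few T droplets. In NASH 1, 5 of 66 C1q-low T droplets had Gzma and 3 of them held 95.3% of its UMIs, and in NASH 2 it was 5 of 60, with 93.9% in 3. Among members, 2 of 55 and 1 of 42 had Gzma. The C1q-high droplets without Cd3 had it in 2.29% and 1.33% of droplets. For Cd160 the shares of C1q-low T droplets were 16.7% and 23.3%, against 10.9% and 4.76% of members. Natural killer and innate lymphoid markers moved with these genes: a list of 9 gave 0.239 and 0.230 UMIs per 1000 in NASH C1q-low T droplets and 0.0882 and 0.071 in members. Their part in the result was not tested.

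Ikzf2 encodes the transcription factor Helios of regulatory T cells, and C1q-high droplets without Cd3 held it at 1.99 to 3.95 CPM. It gave 25.0, 14.3, 6.37 and 9.62 UMIs per 100 T cell UMIs in members against 1.95, 3.56, 5.88 and 5.65 in C1q-low T droplets. It was higher in 4 of 4 libraries, by 1.10 ± 0.513 on the log2 scale (edgeR, adjusted p 0.0429), but the control values rest on 8 UMIs, and without control 1 the difference was 0.55 (adjusted p 0.373), without control 2 the adjusted p was 0.0529 and without NASH 2 0.0904. Within the NASH libraries alone its log2 difference was 0.45 and did not pass, and under TMM it was -0.69. Foxp3 gave 11 UMIs in NASH members, and was not tested for low counts. Klf2, a factor of circulating T cells, passed at 1.10 and was at -0.59 under TMM, and C1q-high droplets without Cd3 held it at 68.1 and 111 CPM, near the 89.8 and 118 CPM of NASH members. The Klf2 call was lost without any 1 of the 4 libraries (adjusted p 0.0544 to 0.143 in edgeR).

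The additive calculation gives the same comparison gene by gene. For 126 listed genes with at least 20 predicted UMIs in the NASH members, none used in solving the amounts, the observed UMIs were within 1.5-fold of the prediction for 84 genes, or 66.7%. They were over it for 4 (Ccl4, Cx3cr1, H2-M2 and Spp1) and under it for 38. The median ratio was 0.70 for the 37 genes with the larger part from T cells and 0.89 for the 89 with the larger part from macrophages.

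Ccl5 gave 1675 UMIs where 1594 were predicted. Trem2 gave 878 UMIs, with 788 predicted, and Cd8a 23, with 26.9 predicted. These genes stood close to the sum. Spp1 gave 785 UMIs where 285 were predicted from macrophages and 14.2 from T cells. Clec4f gave 752 UMIs where 1639 were predicted, Vsig4 676 where 1222 were, and Gzma 5 where 74.9 were. Ccr2 gave 179 UMIs, with 51.2 predicted from T cells and 86.8 from macrophages, and Ly6c2 gave 128, with 128 and 33.2, so both stood within 1.5-fold of the sum. Endothelial genes that C1q-low T droplets carried were among those under the sum, with Kdr, Ptprb, Egfl7 and Clec4g below it. A list of 8 endothelial genes gave 0.664 and 0.782 UMIs per 1000 in the C1q-low T droplets of NASH 1 and NASH 2, and 0.200 and 0.111 in members.

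**Figure D5:**
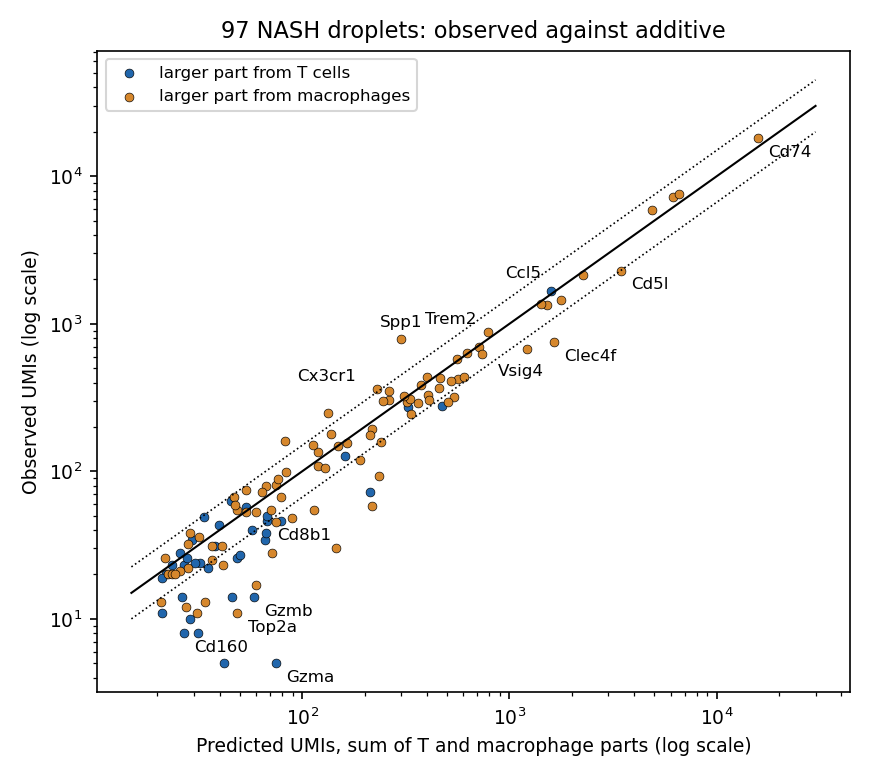
Observed UMIs in the 97 NASH members (vertical, log axis) against UMIs predicted from the amounts of average T cells and macrophages (horizontal, log axis), 1 point per listed gene with at least 20 predicted UMIs. The solid line marks equality and the dotted lines 1.5-fold, and 84 of 126 genes lie between the dotted lines, with Spp1 above and Clec4f, Vsig4 and Gzma below.

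A sum of 2 average profiles lies between them for every gene, so genes beyond both references were sought on the scale of total UMIs. Of 6500 genes tested by edgeR, Spp1 was the only gene above both, or 0.0154%, and Top2a and Crip2 were below both, or 0.0308%. Spp1 was 4.20 ± 0.398 above C1q-low T droplets and 1.31 ± 0.309 above C1q-high droplets without Cd3 on the log2 scale (SE), with adjusted p values of 3.25e-12 and 0.0032. This rests on the few droplets described above: without control 2 no gene was above both, without NASH 2 there were 3 genes and Spp1 was not among those passing, and DESeq2 found none. With at least 10 C1q UMIs per 1000, where droplets of 5 to 10 count as C1q-low T droplets, the fitted Spp1 difference from C1q-low T droplets was -0.12. Against droplets without Cd3 under that limit, NASH members stood at 796 and 477 CPM in NASH 1 and 215 and 173 CPM in NASH 2, members first, and Spp1 was at 0 in the control members. Crip2, a LIM-domain protein gene, was at 33.7 and 16.6 CPM in NASH members, 90.6 and 103 CPM in C1q-low T droplets and 59.1 and 53.4 CPM without Cd3.

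The change with diet was then examined within the members, with the 8 control droplets giving 37929 UMIs in all and the 97 NASH droplets 1046310. In edgeR's quasi-likelihood test with TMM scaling, 66 of 2931 genes passed, or 2.25%, with 46 higher in NASH (1.57%) and 20 lower (0.682%). Of the genes tested, 54.3% had libraries that did not overlap between the diets. On total UMIs without TMM, which moved the median of all genes from 0.32 to -0.13, 18 were higher and 35 lower. Leaving out NASH 1 left 13 genes and NASH 2 15 genes, while leaving out control 1 gave 243 and control 2 192. A diet with 1 library left was assumed to vary like the other. The number of genes thus depended on the setting.

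Of 18 lipid- and scar-associated genes, 9 rose with the NASH diet and none fell. Spp1 had 0 UMIs in the control members and 785 in the NASH members. Against a floor of 3 counts over the control members it was at least 9.49-fold higher. On the same floor Cd63, a lysosomal tetraspanin, was at least 8.42-fold higher, Mmp12, a macrophage elastase, at least 5.30-fold, Fabp5, a fatty acid carrier, at least 3.67-fold and Gpnmb at least 3.63-fold. All of these had 0 UMIs in both control libraries, so their fitted fold changes are no bound. Folds against a floor, here and below, take the level in the other diet as exact. They do not cover the spread between droplets or libraries. Mmp12 lost its call without NASH 2 (edgeR, adjusted p 0.12), and the other 4 kept theirs without each library.

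Trem2 had 3 UMIs in control and 878 in NASH members, a ratio of 10.6 per total UMI with a 95% counting interval of 3.62 to 51.5. Cd9 had 1 and 384, a ratio of 13.9 (2.48 to 551). All 3 control Trem2 UMIs lay in 1 droplet of control 2. Both intervals take UMIs as independent counts and do not cover the spread between droplets or libraries. Trem2 rose by 3.79 ± 0.685 (SE) on the log2 scale in edgeR, with an adjusted p of 0.00174, and by 2.87 without NASH 1, where it did not pass (adjusted p 0.0736). Cd9 did not pass without NASH 2 (adjusted p 0.402). In the C1q-high droplets without Cd3 of the same libraries Trem2 differed by 4.29 ± 0.173 and Cd9 by 5.12 ± 0.227.

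Of 10 recruited macrophage genes tested, 4 rose: Cx3cr1, at least 4.35-fold, Ccr2, at least 2.16-fold, each from 0 control UMIs, and Plac8 and Ms4a7. Ccr2 lost the call in edgeR on total UMIs without TMM (adjusted p 0.107), and without control 1 Ccr2 (0.0783), Plac8 (0.122) and Ms4a7 (0.145) did not pass. Of 7 class II presentation genes tested, 6 rose, with Cd74 at 3185, 9249, 16699 and 18080 CPM in control 1, control 2, NASH 1 and NASH 2. H2-Aa was at 1049, 3379, 7080 and 6578 CPM, and its log2 difference was 2.31 ± 0.427 (SE; edgeR, adjusted p 0.00228). Both NASH libraries lay above both control libraries for each, and Cd74 did not pass without NASH 1 (edgeR, adjusted p 0.0679) or NASH 2 (0.127). Other genes with the largest rises were Hprt, a purine salvage enzyme, and Pkib and Slc25a4, each from 0 control UMIs and each not passing without control 1.

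Of 17 Kupffer cell genes, 6 fell and none rose: Cd163, C6, Timd4, Slc40a1, Spic and Clec4f. Cd163, the haemoglobin scavenger receptor, was at 974 and 1067 CPM in the control members and at 0 of 1046310 UMIs in the NASH members. Against a floor of 3 counts over the NASH members it was at least 349-fold lower, a bound that takes 38 control UMIs as exact. C1q-high droplets without Cd3 held it at 1420, 1391, 3.17 and 9.10 CPM, so it was nearly absent from them as well.

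Timd4 fell from 225 and 267 CPM to 25.6 and 21.3 CPM, a log2 difference of -2.84 ± 0.615 (SE; edgeR, adjusted p 0.00902), and in C1q-high droplets without Cd3 the difference was -2.88 ± 0.216. Spic, a transcription factor of iron-recycling macrophages, fell from 74.95 and 356 CPM to 12.8 and 7.10 CPM, and C6, a terminal complement component, from 675 and 267 CPM to 36.9 and 59.2 CPM. Without control 1, Timd4 (edgeR, adjusted p 0.272), Spic (0.151) and C6 (0.528) kept their direction and did not pass. Clec4f was at 3335, 1156, 793 and 608 CPM and fell by 1.36 (edgeR, adjusted p 0.049), but without control 1 the difference was 0.39 and without NASH 2 the adjusted p was 0.0771. Beyond this list, the largest falls were in Cxcl13, a B cell chemokine, C4b, a complement component, Egr1, an early response factor, and Ppp3cb, Slc25a45 and Dapk1. C4b did not pass without control 1 (edgeR, adjusted p 0.139) or Egr1 without control 2 (0.0692), NASH 1 (0.652) or NASH 2 (0.796), and Ppp3cb, Slc25a45 and Dapk1 did not pass without either control library.

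Of the 20 genes of the T cell list, 7 had enough UMIs to be tested and none passed, and of the 6 T subset lists only Ccl4, a chemokine that macrophages also make, did. The control members held 28 and 7 UMIs of the T cell list, which limits what could be seen. Ccl4 had 1 control UMI and 250 in NASH, a ratio of 9.06 per total UMI with a counting interval of 1.61 to 359, and it did not pass without control 1 (edgeR, adjusted p 0.181).

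The difference between the diets was compared with that in C1q-high droplets without Cd3, by an interaction test in edgeR over 9243 genes. It passed for 2 genes, or 0.0216%, 1 in each direction (0.0108% each), with 469 at an unadjusted p under 0.05, and DESeq2 called none. Marco, a scavenger receptor, was at 225, 978, 46.5 and 4.73 CPM in the members of control 1, control 2, NASH 1 and NASH 2 and at 537, 3555, 16.1 and 19.7 CPM without Cd3. Tmsb10, an actin-binding thymosin, was at 3748, 1868, 1986 and 2455 CPM in members and 125, 117, 859 and 667 CPM without Cd3. In C1q-low T droplets Tmsb10 was at 7788, 8766, 5635 and 6355 CPM. For the genes described above, such as Trem2, Timd4 and Cd163, the change with diet in members was thus not shown to differ from that in other C1q-high droplets.

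Of 8 B cell genes other than Cd79a, which the rule required at 0, Ebf1, Pax5 and Fcmr were at 0, and the list gave 0 to 0.178 UMIs per 1000 in the 4 libraries, against 0.0614 to 0.0779 in C1q-high droplets without Cd3, with control 2 above that range on 2 UMIs. Of 7 neutrophil genes, Retnlg and Ly6g were at 0, and the list gave 0.0615 to 0.150 per 1000, against 0.131 to 0.485. Of 8 hepatocyte genes all were detected, at 0.0639 to 0.711 per 1000 in members and 0.0746 to 0.481 without Cd3, and control 2 again gave the highest value. Of 8 plasmacytoid dendritic genes, Ccr9 and Spib were at 0. Scrublet, which scores barcodes against simulated pairs, ranked 1 of the 105 members among the 79 highest scores of 6237 kept barcodes. Members were thus about as frequent there as kept barcodes in general. Median Scrublet scores of members were 0.108, 0.103, 0.0828 and 0.105 in control 1, control 2, NASH 1 and NASH 2. C1q-low T droplets had 0.0732, 0.0455, 0.0352 and 0.0272, and C1q-high droplets without Cd3 had 0.0801, 0.0661, 0.0489 and 0.0460.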

How the data were processed

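The deposited files hold raw UMI counts per gene and barcode for 4 libraries. Per the submitters' processing notes they used Cell Ranger and Seurat with the mm10 build, and how barcodes were called is not given in the sources used here. The deposited counts held 6927 barcodes, 1550 to 1933 per library, with 5513953 to 15619962 UMIs per library. Barcodes needed 200 genes and a mitochondrial share of 10% or less, and doublets were not removed. Members and gene lists were chosen with earlier results of these data known.

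UMIs were summed per library and droplet class and tested with edgeR 4.0.16 (quasi-likelihood, filterByExpr, Benjamini-Hochberg over all genes tested), with library as a block between classes. Offsets were TMM, total UMIs, or UMIs of 20 T cell or 20 macrophage genes outside the rule. Genes were called at an adjusted p under 0.05. DESeq2 1.42.0 was an alternative, and the scripts were tested on simulated data. Thinning drew 1000 or 3000 UMIs per barcode without replacement, leaving out shallower barcodes. Putative doublets were the highest Scrublet scores (scanpy 1.11.5), 0.8% per 1000 barcodes. B droplets had at least 2 UMIs of Cd79a, Cd79b and Ms4a1. Dendritic droplets had at least 2 of Siglech, Ccr9 and Klk1, and natural killer droplets at least 2 of Ncr1, Klra8 and Klre1. For the C1q-high shares all had Cd3 at 0. Dendritic and natural killer droplets also had Cd79a at 0. The search for Cd3 UMIs in B and dendritic droplets left out the Cd3 term.

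The text names a fixed set of marker genes, up to 4 genes per list with the smallest p, the 10 largest changes with diet each way among called genes with separated libraries and at least 50 CPM, and genes beyond both references. A few other called list genes are named as well, chosen after their values were seen. Mitochondrial, ribosomal, receptor variable and unnamed genes were left out. Replicate numbers come from the titles and were checked for pairing. For 1 gene that the list counts include, its own result is not reported here.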

Additional observations from a re-analysis of the deposited data

Results flagged for a closer look

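For 2 genes the change with diet differed between C1q-high Cd3 droplets and C1q-high droplets without Cd3 in the interaction test of edgeR. For Tmsb10 the log2 difference of the changes was -2.49 ± 0.347 (SE), with an adjusted p of 6.42e-09. It rose with the NASH diet in the C1q-high droplets without Cd3, by 3.01 on the log2 scale, and its difference within the members was 0.04. The call held without control 1 (adjusted p 0.0115) and without control 2, and was lost with at least 10 C1q UMIs per 1000 (adjusted p 0.709), with the stricter barcode filter (adjusted p 0.17), in DESeq2 (adjusted p 0.438) and without either NASH library.

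For Marco the log2 difference of the changes was 3.09 ± 0.587, with an adjusted p of 0.000666 in edgeR. Members held 6, 11, 29 and 2 Marco UMIs in control 1, control 2, NASH 1 and NASH 2. Without NASH 1 the difference was 0.27, and without control 2 the adjusted p was 0.612. With 2 libraries per diet, no group was large enough to look for a library far from the others.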

How the results depend on the processing

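Of the values recomputed for single named genes, 253 lost a call and 65 gained one with the direction kept. Another 13 turned in direction with a call on at least 1 side. The other 1361 kept their side of the threshold, including any that turned without a call in either setting. The cause was not tested unless the setting itself changes the number of droplets or genes. The larger share of members in NASH kept its call under stricter Cd3, C1q and barcode limits, without putative doublets and without each library, and lost it on thinning, at log2 1.18 (1000 UMIs) and 1.96 (3000 UMIs, chosen after seeing the data). The number of genes that differed with diet within members was 188 with at least 3 Cd3 UMIs, 18 with 10 C1q UMIs per 1000, 19 with 500 genes and 5% mitochondrial UMIs, 33 in DESeq2, 221 with no filter on low counts and 36 with the replicate block, and 13 to 243 without each library. Deviations of libraries with the same replicate number had a correlation of -0.0107. The control side rested on 8 droplets, so this value cannot decide whether the replicate numbers pair the libraries. With the block the share of members had log2 3.25 and an adjusted p of 0.00801 in edgeR. The interaction gave 62 genes with 3 Cd3 UMIs, 1 with 10 C1q UMIs per 1000, 0 in DESeq2, 7 on total UMIs, and 0 to 59 without each library. T subset genes that differed from C1q-low T droplets numbered 29 under TMM, and 5 to 10 without each library. Macrophage genes that differed from C1q-high droplets without Cd3 numbered 14 with 10 C1q UMIs per 1000 and 6 in DESeq2, and 3 to 25 without each library. Genes above both references numbered 0 with 10 C1q UMIs per 1000, 2 under TMM, 0 in DESeq2 and 2 with no filter, and 0 to 3 without each library. The T share minus the B share was -1.94 points at 1000 and -2.38 at 3000 UMIs, and minus the natural killer share it was -2.06 with 3 Cd3 UMIs, -3.49 with 10 C1q UMIs per 1000, 15.7 with 500 genes and 5% mitochondrial UMIs, 11.1 at 3000 UMIs and -5.00 to 9.71 without each library.

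Some directions turned under TMM with a call on at least 1 side. Against C1q-low T droplets they were those of Cd69 (-1.10), Cxcr3 (-1.40), Ikzf2 (-0.69), Klf2 (-0.59), Satb1 (-1.31) and Tnfrsf18 (-1.37). Against C1q-high droplets without Cd3 they were those of Cd74 (-0.24), H2-Aa (-0.22), H2-Ab1 (-0.24) and H2-Eb1 (-0.077). Clec4f with diet ranged from -1.99 to 0.39 and Gpnmb, against C1q-high droplets without Cd3, from -0.040 to 1.19 without each library, turning without control 1 and NASH 2. The fitted Spp1 difference from C1q-low T droplets turned to -0.12 with 10 C1q UMIs per 1000, where these hold former members. The NASH libraries alone, the 3000 UMI depth and total UMIs within members were chosen after seeing the data. With 8 control members, most T cell genes could not be tested for a change with diet.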
